A study of Mus musculus with 5 samples.

Results

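The myeloid C-type lectins described here are 8 receptor genes, Clec4a1, Clec4a2, Clec4a3, Clec4d, Clec4e, Clec4n, Clec12a and Clec7a, of which 7 were measured under their gene names among 19505 named genes. The 7 were read from the platform annotation of the arrays, and each had 1 probe set. Clec7a was not analysed here, because no probe set carries its symbol in that annotation. The genes were chosen with the difference between RG7112 and vehicle in these same tumours known, so their differences between the groups are given below as a description, with no test.

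RNA came from whole subcutaneous melanomas of wildtype C57BL/6 mice aged 10 weeks. The tumours grew from B16.F10 luc+GFP+ cells, a mouse melanoma line that makes luciferase and a green fluorescent protein. An antibody against PD-1 (anti-PD-1), a receptor that restrains T cells, was injected intraperitoneally into all 5 mice on days 1, 4 and 8. By mouth, 3 mice were given RG7112, an MDM2 inhibitor that frees p53, and 2 were given its vehicle, 5% DMSO in corn oil; dosing was every 2 days for 6 days, and tumours were taken on day 13. Each tumour held melanoma cells together with the immune cells inside it, came from 1 mouse and was measured on 1 Affymetrix Clariom S array as log2 RMA signals, so that a difference of 1 is a doubling. The vehicle tumours carry the numbers 3 and 4 and the RG7112 tumours the numbers 1, 2 and 3, as in the labels. No tumour without anti-PD-1 and no second cell line entered the comparison.

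C-type lectin receptors of myeloid cells are membrane proteins that bind sugars, lipids or material from dying cells and pass a signal through kinases or phosphatases. Clec12a and Clec4a2 carry an ITIM in the cytoplasmic tail, an inhibitory motif that recruits the phosphatases Ptpn6 and Ptpn11 (SHP-1 and SHP-2) and dampens activation. Clec4d (MCL), Clec4e (Mincle) and Clec4n (Dectin-2) lack such a motif and signal through the ITAM of the Fc receptor chain Fcer1g, the kinase Syk and the adaptor Card9 towards NF-kB and cytokines. Clec7a (Dectin-1), the receptor for fungal beta-glucan, has an ITAM-like motif of its own. Clec4a1 and Clec4a3 are close relatives of Clec4a2 in the Dcir group and were counted here neither as ITIM-bearing nor as activating. All classes rest on general knowledge of these receptors, and no protein sequence was used to check them.

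The 7 genes did not move alike. Both ITIM-bearing lectins and both further Dcir genes stood higher in every RG7112 tumour than in either vehicle tumour, by 1.19 to 2.62 on the log2 scale, whereas the groups overlapped in all 3 Fcer1g-coupled activating lectins, whose differences ran from -0.25 to 0.58. Groups did not overlap, with RG7112 above, in 4 of the 7 genes and in 10.8% of all 22203 probes, and with RG7112 below in 0 of the 7 and in 14.0% of all probes. The genes were chosen on this contrast, so nothing is read from that count. In the limma fit over all probes, used below for other genes, 1.42% of probes were called higher and 0.0315% lower at adjusted p under 0.05, and 8.89% had an unadjusted p under 0.05 in either direction.

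**Figure D1:**
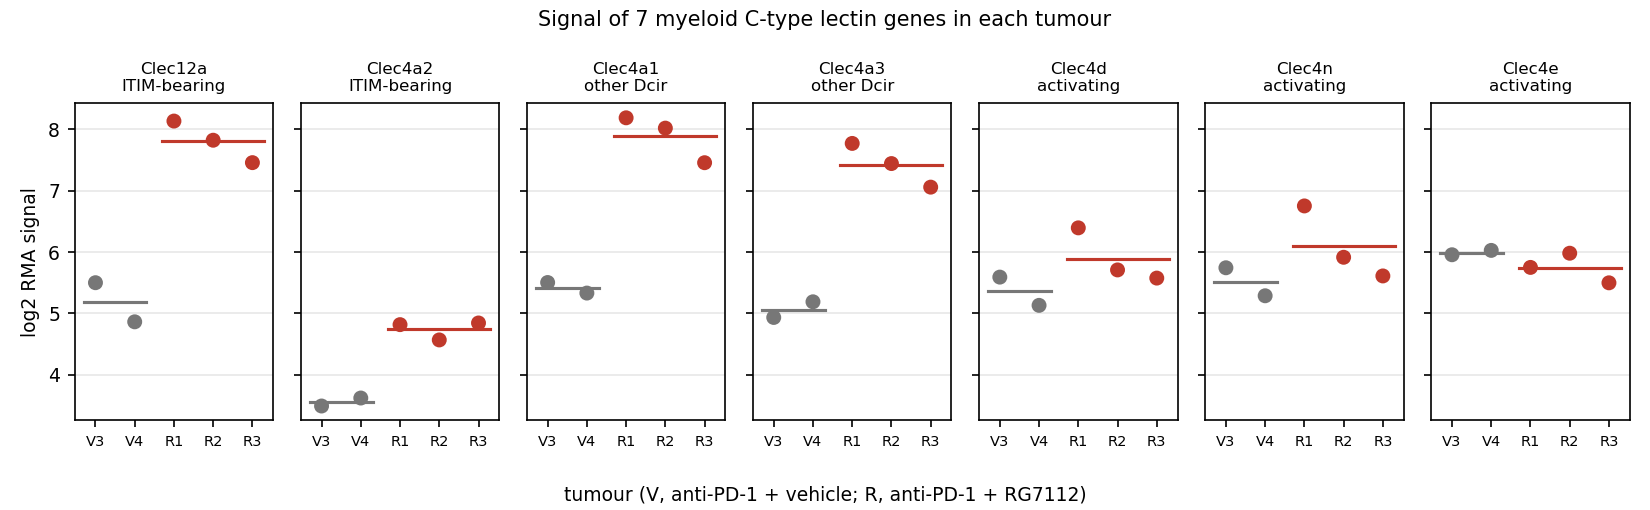
Log2 RMA signal of the 7 measured lectin genes in each tumour (grey, anti-PD-1 with vehicle, n = 2; red, anti-PD-1 with RG7112, n = 3; lines, group means). Clec12a, Clec4a2, Clec4a1 and Clec4a3 have every RG7112 tumour above both vehicle tumours, and Clec4d, Clec4n and Clec4e have overlapping groups.

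Clec12a (probe TC0600001532.mm.2), an inhibitory receptor that senses uric acid crystals and dead cells, had signals of 5.50 and 4.86 in vehicle tumours 3 and 4 and of 8.13, 7.82 and 7.46 in RG7112 tumours 1, 2 and 3. The lowest RG7112 tumour lay 1.96 above the highest vehicle tumour. The group means were 5.18 ± 0.45 (SD, n = 2) and 7.80 ± 0.34 (SD, n = 3), a difference of 2.62 ± 0.24 (SE), or 6.15-fold, which ranked 1 among all probes. Leaving out each tumour in turn moved it between 2.30 and 2.94.

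Clec4a2 (probe TC0600001401.mm.2), the ITIM-bearing Dcir receptor of dendritic cells, monocytes and macrophages, had signals of 3.49 and 3.62 with vehicle and of 4.82, 4.57 and 4.85 with RG7112. The 3 RG7112 tumours were close together and all lay above the vehicle tumours, by at least 0.95. Its difference was 1.19 ± 0.16 (SE), or 2.28-fold, from 3.56 ± 0.09 (SD, n = 2) to 4.74 ± 0.15 (SD, n = 3). It was the only measured lectin of the 7 with a mean signal below the 40th percentile of all probes, and RMA signals near the bottom of the scale understate fold changes.

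Clec4a1 and Clec4a3 had differences close to each other and to that of Clec12a. Clec4a1 (probe TC0600001397.mm.2) had signals of 5.50 and 5.33 with vehicle and of 8.19, 8.02 and 7.46 with RG7112, a difference of 2.47 ± 0.21 (SE), or 5.53-fold. Clec4a3 (probe TC0600001398.mm.2), its neighbour on chromosome 6, had 4.94 and 5.19 with vehicle and 7.77, 7.44 and 7.06 with RG7112, a difference of 2.36 ± 0.21 (SE), or 5.13-fold. In both genes RG7112 tumour 1 was highest and RG7112 tumour 3 lowest within its group, and the groups were 1.95 and 1.87 apart. The probes of these related genes may share target sequence, which was not tested. Clec4a4, a further ITIM-bearing relative that lies next to Clec4a3, had 3.66 and 3.42 with vehicle and 3.64, 3.88 and 3.43 with RG7112, a difference of 0.11 ± 0.18 (SE; limma adjusted p = 0.927).

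Among the activating lectins, Clec4d (probe TC0600001404.mm.2), which pairs with Mincle in recognising mycobacterial glycolipid, had signals of 5.59 and 5.13 with vehicle and of 6.39, 5.71 and 5.58 with RG7112. Clec4n (probe TC0600001403.mm.2), a receptor for fungal alpha-mannan, had 5.74 and 5.29 with vehicle and 6.75, 5.92 and 5.61 with RG7112. In both genes RG7112 tumour 1 stood above the other 4 tumours, and RG7112 tumour 3 lay below vehicle tumour 3. The differences were 0.53 ± 0.25 (SE) for Clec4d and 0.58 ± 0.29 (SE) for Clec4n. Without RG7112 tumour 1 they were 0.28 and 0.25, and without vehicle tumour 4 they were 0.30 and 0.35.

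Clec4e (probe TC0600003084.mm.2), which encodes Mincle, a sensor of glycolipids and of the protein Sap130 from dying cells, had 5.96 and 6.03 with vehicle and 5.75, 5.98 and 5.50 with RG7112. Its difference was -0.25 ± 0.18 (SE), and vehicle tumour 4 was the highest of the 5. It was the only measured lectin of the 7 with a lower mean in RG7112 tumours, and its sign stayed the same under every alternative run for it, with differences from -0.37 to -0.13.

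Across the 5 tumours, the lectins also differed in how they varied from tumour to tumour. After each gene was centred on its mean, the profiles of Clec4d and Clec4n, adjacent genes, were the most alike, with a root mean square difference of 0.10 on the log2 scale. Next came Clec4a1 with Clec4a3 at 0.16 and Clec4a1 with Clec12a at 0.18. The least alike were Clec12a and Clec4e, at 1.44. RG7112 tumour 1 had the highest signal in 5 of the 7 genes, the exceptions being Clec4a2 and Clec4e, and vehicle tumour 4 had the lowest signal in 4 of the 7. These values over 5 tumours are descriptions, and much of each profile is the group difference that chose the genes.

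The genes outside the set with the profile nearest to the median of the 7 lectins were Pla2g4a, the cytosolic phospholipase that releases arachidonic acid, at a root mean square difference of 0.12 over 5 tumours, and Dock10, an activator of small GTPases, at 0.12. Ms4a4c (0.12), the class II loading gene H2-DMb1 (0.13), Gatm (0.14), an enzyme of creatine synthesis, and Phf11d (0.14) followed. The median profile stood at -0.78 and -0.65 in vehicle tumours 3 and 4 and at 0.89, 0.30 and 0.56 in RG7112 tumours 1, 2 and 3. The median was taken in each tumour separately and stood higher in RG7112 tumour 3 than in tumour 2. In 5 of the 7 lectins the RG7112 tumours instead ran 1, 2, 3 from high to low. The named genes thus resemble that median and not each lectin. The likeness was taken over all 19505 named genes and includes the group difference.

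All 8 genes lie on mouse chromosome 6 in separate runs of lectin genes, one with the 6 Clec4 genes and one with Clec12a and Clec7a. Neighbouring genes were set beside the members. Several had signals near the bottom of the scale, where fold changes are understated, among them Clec4a4 and Clec12b (percentiles 13.7 and 21.0 of mean signal). Small differences in such genes do not show how local the change was. Within 3 gene positions of a member, in the order of RefSeq's GRCm38.p6 assembly, there were 22 other genes, 15 of them protein-coding and all 15 measured; 1 of the 15 rose in limma and 0 fell, their median difference was 0.06, and all probes had a median of -0.03. The gene that rose was C3ar1, the receptor for complement fragment C3a, from 7.71 and 7.28 to 8.99, 8.81 and 8.50, a difference of 1.27 ± 0.20 (SE; limma adjusted p = 0.0075); without vehicle tumour 4 it was 1.05 and not called (adjusted p = 0.191). Clec4b1 and Clec4b2, activating relatives that lie on either side of Clec4a2, differed by 0.66 ± 0.22 (limma adjusted p = 0.299) and -0.15 ± 0.17 (limma adjusted p = 0.885). Beside Clec12a, its ITIM-bearing relative Clec12b differed by -0.01 ± 0.16 (limma adjusted p = 0.994), turning to 0.058 after quantile normalization and 0.054 after cyclic loess, and Cd69, an activation marker of lymphocytes, by 0.45 ± 0.24 (limma adjusted p = 0.668).

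**Figure D2:**
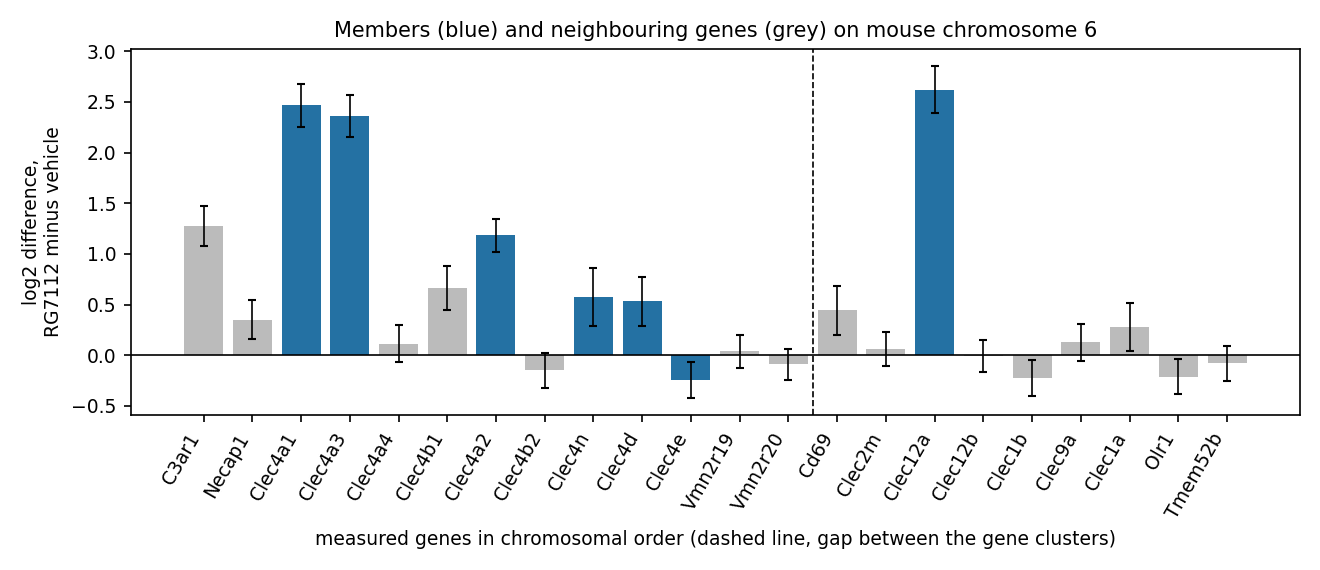
Log2 difference (RG7112 minus vehicle, bars from 0; error bars, SE of the limma fit, 3 RG7112 and 2 vehicle tumours) of the measured lectin genes (blue) and of measured genes within 3 positions (grey), in chromosomal order; distances are not to scale. High bars alternate with bars near 0, as for Clec4a1 and Clec4a3 (2.47 and 2.36) beside Clec4a4 (0.11), and Clec12a (2.62) beside Clec12b (-0.01). Clec4a4 and Clec12b had signals near the bottom of the scale, where fold changes are understated.

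Promoter windows of 300 bases, from 250 before to 50 after a start site, were held for 7 of the 8 genes, and for 6 of the 7 measured ones, in RefSeq's GRCm38.p6 annotation. They were searched on both strands for the core of the PU.1 binding site, GAGGAA, since PU.1, encoded by Spi1, is the factor on which myeloid gene expression depends. The core was present in 5 of the 6 measured lectins with a window, Clec12a, Clec4a1, Clec4a3, Clec4d and Clec4e, and not in that of Clec4a2, while 31.3% of 27025 genes and 28.3% of 32851 windows held it. It occurred both in lectins that stood higher and in lectins that did not, so the match did not separate them. Shown are the windows of the 2 lectins with the largest differences and of Clec4e, whose mean was lower, with GAGGAA or its reverse complement TTCCTC in capitals, each 5′ to 3′ on the strand of the gene.
Clec12a, chr6:129349994-129350293, plus strand: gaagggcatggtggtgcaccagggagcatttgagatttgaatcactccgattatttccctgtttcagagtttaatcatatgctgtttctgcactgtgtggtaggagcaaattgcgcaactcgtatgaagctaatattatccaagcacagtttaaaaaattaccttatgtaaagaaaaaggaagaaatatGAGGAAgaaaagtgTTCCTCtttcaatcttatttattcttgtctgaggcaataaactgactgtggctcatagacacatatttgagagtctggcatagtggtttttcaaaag
Clec4a1, chr6:122921598-122921897, plus strand: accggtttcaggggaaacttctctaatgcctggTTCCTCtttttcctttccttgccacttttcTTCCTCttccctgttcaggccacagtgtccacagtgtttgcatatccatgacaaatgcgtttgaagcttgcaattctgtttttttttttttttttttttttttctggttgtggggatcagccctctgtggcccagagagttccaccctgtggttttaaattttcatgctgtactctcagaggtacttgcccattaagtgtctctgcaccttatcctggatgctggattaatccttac
Clec4e, chr6:123289822-123290121, minus strand: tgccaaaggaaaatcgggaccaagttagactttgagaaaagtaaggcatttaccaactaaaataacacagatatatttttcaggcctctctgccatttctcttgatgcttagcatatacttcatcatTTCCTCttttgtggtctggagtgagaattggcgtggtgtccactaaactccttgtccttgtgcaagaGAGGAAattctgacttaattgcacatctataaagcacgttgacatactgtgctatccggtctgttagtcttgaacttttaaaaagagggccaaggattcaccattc

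Other motifs were rarer in these windows. The interferon-type element, GAAA followed after any 2 bases by GAAA, was found in Clec4d (3.44% of all windows), the ETS and IRF composite, GGAA followed after any 2 bases by GAAA, in Clec4a1 and Clec7a (2.72%), the GAS-type element TTCNNNGAA in Clec4a2 (8.30%) and the C/EBP-type element TTGCNNAA in Clec12a and Clec4e (10.8%). The first 2 patterns can overlap PU.1 cores. The NF-kB pattern, GGG followed after any 2 bases by TTTCC (1.63%), and the p53 half-site (8.36%) were in 0 of the 7 genes with a window; this says only that those letters were not in these 300 bases. Spi1 itself rose from 8.84 and 8.88 to 10.7, 10.5 and 10.0, a difference of 1.58 ± 0.20 (SE; limma adjusted p = 0.0022); the call did not hold without vehicle tumour 3 (adjusted p = 0.0512) or 4 (adjusted p = 0.073). Of 19 measured myeloid and interferon transcription factors 3 rose, 0 fell and 16 did not pass; the others were Irf1 (1.22 ± 0.20) and Stat2 (0.89 ± 0.16). Without vehicle tumour 3 the count was 1, and without vehicle tumour 4 it was 0; Stat2 was also not called without RG7112 tumour 1 or 3.

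The contrast between inhibitory and activating lectins was then followed in each tumour. The mean of Clec12a and Clec4a2, relative to its vehicle mean, was 2.11, 1.83 and 1.78 in RG7112 tumours 1, 2 and 3. The mean of Clec4d, Clec4e and Clec4n was 0.68, 0.25 and -0.06, so that the third tumour had no excess over vehicle. The gap between the classes was 1.43, 1.58 and 1.84, with a mean of 1.62 ± 0.21 (SD, n = 3), against -0.01 and 0.01 in the vehicle tumours. These values come from the contrast on which the genes were chosen and are a description. The size of the gap depended on the genes: without Clec12a it was 0.90, without Clec4a2 it was 2.33, and without Clec4e it was 1.35. Clec4a1 and Clec4a3, which belong to neither class here, had a mean of 2.74, 2.49 and 2.02 in the 3 RG7112 tumours, 0.51 ± 0.24 (SD, n = 3) above the ITIM-bearing pair.

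**Figure D3:**
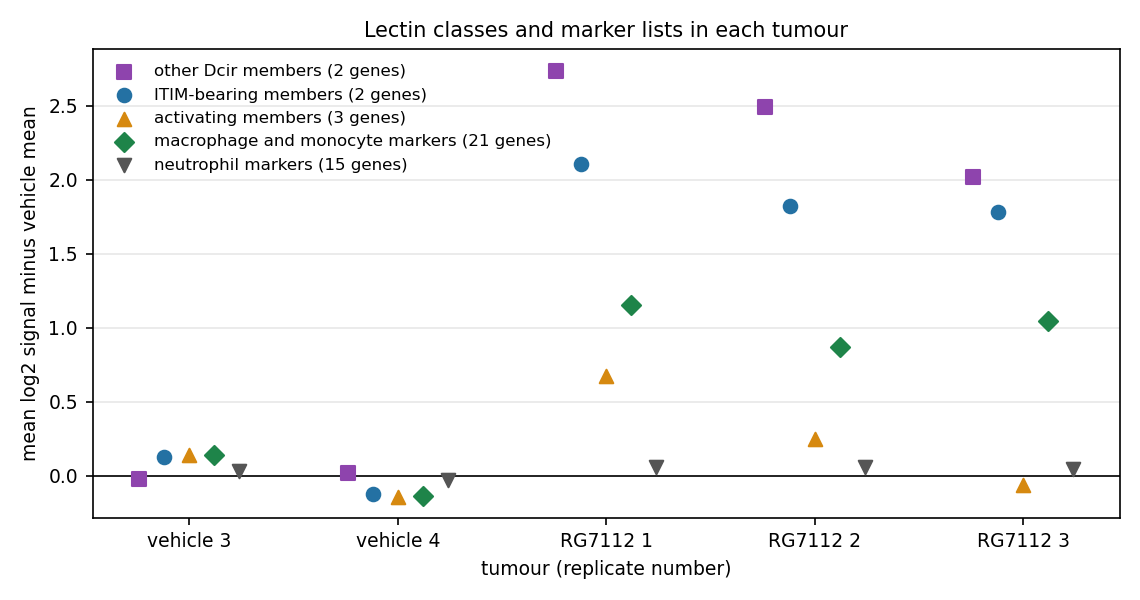
Mean log2 signal of each lectin class and of 2 marker lists in each tumour, relative to the mean of the vehicle tumours (symbols, 1 value per tumour). In the RG7112 tumours the ITIM-bearing lectins (1.78 to 2.11) and the other Dcir genes (2.02 to 2.74) lie above the macrophage and monocyte markers (0.87 to 1.15). The activating lectins (-0.06 to 0.68) lie below those markers. The neutrophil markers (0.04 to 0.06), mostly dim genes, lie near 0.

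Markers of macrophages and monocytes, the cells that express most of these lectins, moved in the same tumours. Of 21 measured markers 10 rose, 0 fell and 11 did not pass, against 1.42% of all probes called higher. The 5 with the smallest p-values were Aif1 (2.57 ± 0.20), Adgre1 (1.58 ± 0.18), the F4/80 antigen of macrophages, Ly6c2 (2.03 ± 0.26), a marker of inflammatory monocytes, the IgG receptor Fcgr1 (1.34 ± 0.17) and the complement chain C1qb (1.45 ± 0.19). Other members did not pass: Cd163, a scavenger receptor of tissue macrophages, was lower in all 3 RG7112 tumours than in either vehicle tumour (-0.56 ± 0.17, limma adjusted p = 0.240). The lipoprotein gene Apoe (0.17 ± 0.16), the lysozyme gene Lyz1 (0.25 ± 0.17) and the endotoxin co-receptor Cd14 (0.29 ± 0.23) had limma adjusted p-values of 0.852, 0.763 and 0.807. The mean level of the list was 6.44 and 6.17 in the vehicle tumours and 7.46, 7.18 and 7.35 in the RG7112 tumours, a difference of 1.02, and without vehicle tumour 4 only 1 member was called. In bulk tissue, more cells of a type and more RNA per cell cannot be told apart.

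Set against this list, the lectin classes moved apart in both directions. The mean of the ITIM-bearing lectins exceeded it by 0.95, 0.96 and 0.74 in RG7112 tumours 1, 2 and 3. Most of that excess came from Clec12a (2.62), since Clec4a2 (1.19) was near the list's mean difference of 1.02. The marker Aif1 (2.57) also reached a value near that of Clec12a. The other Dcir genes exceeded the list by 1.59, 1.62 and 0.97. The activating lectins stood below the list, with differences of -0.48, -0.63 and -1.10. The lectins were chosen on this contrast, so these values are a description. Over all 7 lectins the excess was 0.34 ± 0.28 (SD, n = 3), with 0.02 in RG7112 tumour 3. Differences on an array show unequal change of the signals, and the part of the marker cells in these values was not tested.

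Neutrophils, monocytes and dendritic cells also carry several of these receptors, Clec4d and Clec4e among them. Of 15 measured neutrophil markers 0 rose and 0 fell in limma (1 higher and 0 lower at an unadjusted p under 0.05), and the list's mean was 4.41 and 4.35 with vehicle and 4.44, 4.44 and 4.42 with RG7112. The 5 with the smallest p-values ran in both directions: Csf3r, the receptor for the neutrophil growth factor, differed by 0.62 ± 0.17 with groups that did not overlap (limma adjusted p = 0.163), Lcn2 by 0.56 ± 0.30, Mpo by 0.32 ± 0.18, Camp by -0.36 ± 0.20 and Ngp by -0.28 ± 0.16. The calprotectin genes S100a8 and S100a9, which neutrophils express very highly, differed by -0.13 ± 0.16 and -0.05 ± 0.18 (limma adjusted p = 0.894 and 0.969). S100a8 had vehicle signals of 3.57 and 3.41. Most neutrophil markers were dim, with a median percentile of mean signal of 29.0. When probes below the 40th percentile were omitted, 4 of the 15 remained. The neutrophil list thus does not show whether these cells changed. Of 15 dendritic cell markers 1 rose, the integrin Itgax (0.98 ± 0.20, limma adjusted p = 0.0376), a call lost without any 1 of 4 tumours (vehicle 3 or 4, RG7112 1 or 2). At an unadjusted p under 0.05 in limma, 3 of the 15 dendritic cell markers were higher and 0 lower. That list's mean was 5.76 and 5.89 with vehicle and 5.93, 6.07 and 6.08 with RG7112. Flt3, the growth factor receptor of dendritic cells, differed by 0.10 ± 0.21 (limma adjusted p = 0.945). Its vehicle signals of 3.60 and 3.28 were near the bottom of the scale, where fold changes are understated. Markers of the melanoma cells were high in all 5 tumours, at list means from 11.3 to 11.5, and 0 of 12 passed in limma (1 higher at an unadjusted p under 0.05).

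Other C-type lectins were examined next, although many of them had dim signals. Of 50 measured genes outside the set 3 rose, 0 fell and 47 did not pass in limma. At an unadjusted p under 0.05, 8 were higher and 5 lower. The median difference of the 50 was 0.01, and the list excludes the 8 genes chosen on the contrast. Its median percentile of mean signal was 35.1. When dim probes were omitted, 18 of the 50 remained, and 3 of these were called. The median and the 47 that did not pass thus rest largely on dim genes. They do not show whether the family as a whole moved. Clec2d, a ligand of the NK receptor Klrb1, rose from 6.59 and 6.15 to 8.75, 8.72 and 7.79, a difference of 2.05 ± 0.28 (SE; limma adjusted p = 0.00294). Cd72, an ITIM-bearing receptor of B cells that macrophages also express, rose from 7.92 and 7.47 to 9.71, 9.06 and 9.32 (1.67 ± 0.22, limma adjusted p = 0.00235). Cd93, a receptor of endothelial and myeloid cells, rose by 1.33 ± 0.21 (limma adjusted p = 0.00783). Clec2d and Cd72 were not called without vehicle tumour 4 (adjusted p = 0.114 and 0.096) and Cd93 was not without vehicle tumour 3 (adjusted p = 0.153); the list had 1 call without vehicle tumour 4.

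The other well-known myeloid lectins did not pass. Mrc1, the mannose receptor of alternatively activated macrophages, had 7.03 and 6.78 with vehicle and 7.66, 6.95 and 6.96 with RG7112, a difference of 0.29 ± 0.23 (limma adjusted p = 0.809). Clec10a, a galactose-type lectin of macrophages and dendritic cells, differed by 0.29 ± 0.17 (limma adjusted p = 0.717), Clec5a, an activating lectin that uses Tyrobp, by 0.40 ± 0.16 (limma adjusted p = 0.463) and Clec9a, the lectin of cross-presenting dendritic cells, by 0.13 ± 0.18 (limma adjusted p = 0.915). Clec5a and Clec9a had vehicle signals of 3.27 to 3.47, near the bottom of the scale, where differences are compressed.

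The signalling chains downstream were examined next. Of 20 measured genes of activating lectin signalling 3 rose, 0 fell and 17 did not pass, with a median difference of 0.31. Fcer1g, the chain that Clec4d, Clec4e and Clec4n need, rose from 7.25 and 6.73 to 9.32, 8.64 and 8.94, a difference of 1.98 ± 0.22 (SE; limma adjusted p = 0.00109), while the 3 lectins that use it had overlapping groups; Fcer1g also serves Fc receptors. Its relative Tyrobp rose by 1.30 ± 0.19 and the exchange factor Vav1 by 1.28 ± 0.22, a call that Vav1 also lost without RG7112 tumour 3. Syk had 6.33 and 6.64 with vehicle and 6.94, 6.98 and 7.19 with RG7112 and did not pass (0.55 ± 0.17, limma adjusted p = 0.240), and Card9 differed by -0.03 ± 0.23 (limma adjusted p = 0.987). The list had 1 call without vehicle tumour 3 and 0 without vehicle tumour 4, where Fcer1g had an adjusted p of 0.0539 in limma.

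On the inhibitory side, 3 of 10 measured phosphatases and adaptors rose, 0 fell and 7 did not pass, with a median of 0.41. Those that rose were the lipid phosphatase Inpp5d (SHIP-1), by 0.98 ± 0.16 (limma adjusted p = 0.0111), the tyrosine phosphatase Ptpn22, by 1.39 ± 0.17, and Sh2d1b1, an adaptor of SLAM receptors, by 1.57 ± 0.20. The phosphatases that bind the ITIM of Clec12a and Clec4a2 did not pass: Ptpn6 had 7.51 and 7.67 with vehicle and 7.95, 8.09 and 8.68 with RG7112 (0.65 ± 0.22, limma adjusted p = 0.302), and Ptpn11 differed by -0.09 ± 0.16 (limma adjusted p = 0.932). The fit seldom calls differences near 0.5, so this does not show that Ptpn6 was unchanged. All 3 calls were lost without vehicle tumour 4.

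Genes that the Syk and Card9 pathway can induce were higher in part. Of 20 measured, 3 rose, 0 fell and 17 did not pass, with a median of 0.13. The cytokine Tnf rose from 4.22 and 4.04 to 5.48, 5.76 and 5.45 (1.43 ± 0.17), the chemokine Ccl3 by 1.78 ± 0.25 and the nitric oxide synthase Nos2 by 0.80 ± 0.16, all of which other pathways induce too. Without vehicle tumour 4, 0 of the 20 passed in limma. The Nos2 call was also lost without any other 1 tumour (adjusted p from 0.0689 to 0.441 over the 5 fits) and with an intensity trend (adjusted p = 0.069). Of 8 measured genes for reported endogenous ligands, or enzymes that make them, 0 rose and 0 fell (1 higher at an unadjusted p under 0.05 in limma). The Mincle ligand Sap130 differed by 0.08 ± 0.16, the Dectin-1 ligand galectin 9, Lgals9, by 0.57 ± 0.17 (limma adjusted p = 0.214), and Ugcg, which makes the Mincle ligand glucosylceramide, by 0.24 ± 0.21.

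The split between ITIM-bearing and ITAM-coupled lectins was set beside receptors of other families. Of 17 measured ITIM-bearing myeloid receptors 6 rose, 0 fell and 11 did not pass (median 0.41), and of 14 ITAM-coupled receptors 4 rose, 0 fell and 10 did not pass (median 0.39). Among the first, Klra2, a Ly49 receptor of myeloid cells, rose from 4.74 and 4.08 to 6.65, 6.37 and 6.27 (2.02 ± 0.21), Lair1, the collagen receptor, by 1.42 ± 0.29 (not called after cyclic loess, adjusted p = 0.0551), Lilrb4a by 1.15 ± 0.21, Pirb by 0.98 ± 0.17, Siglece by 0.96 ± 0.20 and the inhibitory IgG receptor Fcgr2b by 0.84 ± 0.18. Among the second, the activating IgG receptor Fcgr4 rose from 5.62 and 5.23 to 8.41, 7.89 and 7.41 (2.48 ± 0.26), Fcgr1 by 1.34 ± 0.17 and Fcgr3 by 1.11 ± 0.19, with the integrin chain Itgb2 at 1.10 ± 0.15. The difference between the ITIM-bearing and ITAM-coupled lists was not tested, and Fcgr1 was also counted among the macrophage and monocyte markers. Without vehicle tumour 4 each of the 2 lists had 1 call, and without vehicle tumour 3 the lists had 1 and 3; Klra2 and Fcgr4 were called in every setting run. Calls were also lost for Lilrb4a and Siglece without RG7112 tumour 2, for Siglece, Lair1 and Fcgr2b without RG7112 tumour 3, and for Fcgr2b without RG7112 tumour 1.

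**Figure D4:**
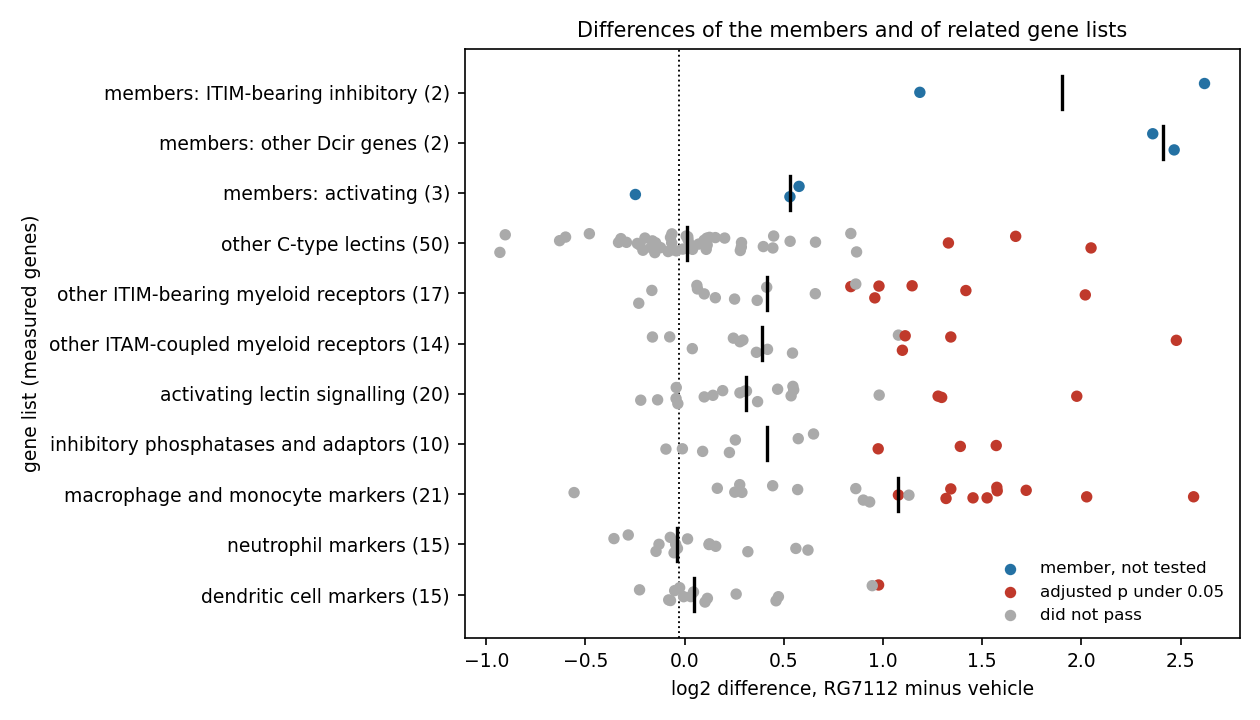
Log2 difference (RG7112 minus vehicle) of each measured gene in the lectin classes (blue, not tested) and in related lists (red, limma adjusted p under 0.05; grey, did not pass; black ticks, list medians; dotted line, median of all probes at -0.03). Points are spread vertically at random for legibility. The ITIM-bearing and ITAM-coupled receptor lists have medians of 0.41 and 0.39, and the lectin classes medians of 1.90 (ITIM-bearing), 2.41 (other Dcir) and 0.53 (activating).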

How the data were processed

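Total RNA of 5 tumours was measured on 5 arrays. The authors deposited log2 signals, 1 per probe set (called a probe here); the submitters' processing notes name oligo and RMA. Values ran from 2.53 to 13.3 with array medians from 5.76 to 5.81, and 0 pairs of arrays were identical. The labels state no scan date, so batches were not examined, and the number of arrays limits the precision. The labels put each tumour in its own mouse.

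A single gene symbol was given for 19572 of 22203 probes and none for 2631; where a gene had more than 1 (55 genes), its brightest was used. The groups were compared in R 4.3.3 with limma 3.58.1 (lmFit, eBayes; residual degrees of freedom 3, prior 7.92), adjusting p-values by Benjamini-Hochberg across the 22203 probes, with calls at adjusted p under 0.05. The scripts were tested on simulated data with 200 of 22203 probes changed by known sizes. There the fit called 2.6% of differences of 0.5, 65.0% of 1.0 and 99.6% of 2.0. A gene that did not pass may therefore still have differed by a modest amount.

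The lectins, 17 gene lists and the naming rule were chosen with earlier results of these data known. The rule took the members, the 5 smallest p-values in each list, set lectin and signalling genes, ligands, genes within 3 positions of a member and the 6 nearest profiles. Not every gene it took is described above. Among those left out, Irf7 (1.15 ± 0.26), Btk (0.98 ± 0.24) and Clec2i (0.84 ± 0.19) were higher without passing. The ligand genes Vim (-0.11 ± 0.16) and Anxa1 (-0.21 ± 0.17), also left out, did not pass. Outside the rule, Cd209a to Cd209f, Fcgr2b, Cd163, Apoe, Lyz1, Cd14, S100a8, S100a9, Flt3, Ncr1, Klrb1c, Klre1 and Klrd1 were picked after their values were seen. Alternatives were an intensity trend or robust eBayes, quantile or cyclic loess normalization, omitting probes below the 40th percentile, averaging probes of a gene, adjusted p under 0.10, leaving out each tumour and, added after seeing the data, leaving out each lectin from its class.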

Additional observations from a re-analysis of the deposited data

How the results depend on the processing

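The lectin differences kept their direction under every alternative run for them. Over the settings that leave out a tumour, the median of the 7 lectins ran from 1.12 to 1.27, the gap between ITIM-bearing and activating lectins from 1.51 to 1.71, and the excess over macrophage and monocyte markers from 0.24 to 0.49. Without dim probes, which removes Clec4a2, the median was 1.47 and the gap 2.33; leaving out single lectins, chosen after seeing the data, gave gaps of 2.33 (without Clec4a2), 0.90 (without Clec12a) and 1.35 (without Clec4e). Counts depended on the tumours. Leaving out each tumour in turn gave 65 to 268 probes called higher and 0 to 5 lower; lower calls were also 4 after cyclic loess, 2 without dim probes and 29 at adjusted p under 0.10. By list, those settings gave 1 to 4 calls for other C-type lectins, 0 to 3 for activating signalling, 0 to 3 for inhibitory phosphatases and adaptors, 0 to 2 for Syk and Card9 response genes, 0 to 4 for transcription factors, 1 to 5 for ITIM-bearing and 1 to 4 for ITAM-coupled receptors, 1 to 12 for macrophage markers, 0 to 1 for dendritic, NK and endothelial markers and 0 for T cell markers. Dendritic markers had 2 calls with cyclic loess, an intensity trend, no dim probes or adjusted p under 0.10, a threshold that also gave 5 for transcription factors and 2 for endothelial markers. The cause was not tested, beyond the fewer tumours or probes. Clec12b turned to 0.054 with cyclic loess and 0.058 with quantile normalization. Near-zero differences that changed sign when a tumour was left out, with their ranges, were those of Clec4a4 (-0.006 to 0.24), Clec9a (-0.016 to 0.24), Clec12b (-0.068 to 0.051), Card9 (-0.32 to 0.25), Ptpn11 (-0.22 to 0.034) and Sap130 (-0.044 to 0.21), and none of them passed in limma in any setting. No paired analysis was run, because the labels state no pairing of tumours between the groups. RMA signals near the bottom of the scale limit what can be said of Clec4a2, Clec4a4, Clec5a, Clec9a and Clec12b.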

Other observations

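Of the 7 measured Cd209 genes, relatives of the human lectin DC-SIGN, 0 passed in limma (3 lower and 0 higher at an unadjusted p under 0.05). Cd209a (-0.15), Cd209b (-0.04), Cd209d (0.16) and Cd209e (-0.16) were near 0, Cd209c differed by -0.63 ± 0.21, and the remaining ones had the most negative values. Cd209g had signals of 5.37 and 5.06 with vehicle and of 4.79, 3.82 and 4.24 with RG7112, a difference of -0.93 ± 0.25 (SE; limma adjusted p = 0.147). Cd209f had 6.26 and 6.95 with vehicle and 6.04, 5.26 and 5.79 with RG7112, a difference of -0.90 ± 0.25 (limma adjusted p = 0.176). Neither passed with all 5 tumours, and Cd209g passed without RG7112 tumour 1 (-1.18, limma adjusted p = 0.0177).

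The lists for lymphocytes and stromal cells had at most 1 call each. Of 12 T cell markers 1 rose in limma, Cd8b1 (0.90 ± 0.18), of 10 NK cell markers 1, Il2rb (0.95 ± 0.19), and of 8 endothelial markers 1, the VEGF receptor Kdr (1.01 ± 0.19). Those shares were 8.33%, 10.0% and 12.5%, against 1.42% of all probes called higher. At an unadjusted p under 0.05 in limma, 4 T cell, 4 NK cell and 3 endothelial markers were higher and 0 lower. Of all probes, 8.89% had such a p in either direction. The T cell list had 0 calls without any 1 of the 5 tumours. The NK cell list had 0 without vehicle tumour 3 or 4 or RG7112 tumour 3, and the endothelial list had 0 without those or RG7112 tumour 2. Of 8 B cell markers and 7 fibroblast markers 0 passed in limma (1 each higher at an unadjusted p under 0.05). When dim probes were omitted, 0 of the 8 B cell, 2 of the 10 NK cell and 6 of the 12 T cell markers remained. The B cell list, and most of the NK cell list, thus lay where differences are compressed. Neither shows whether those cells changed. The list means differed by 0.34 for T cells, 0.41 for NK cells, -0.10 for B cells, 0.43 for endothelium and 0.19 for fibroblasts. Within the NK cell list the differences were uneven. Gzmb (1.00), Il2rb (0.95) and Prf1 (0.75) had the largest, and of these only Il2rb passed. Ncr1 (0.07), Klrb1c (0.08), Klre1 (0.05) and Klrd1 (0.12) were near 0 and dim.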
